A study of Homo sapiens with 6 samples.

Results

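The regions described are internal 3' UTR peaks of N6-methyladenosine (m6A), the peaks that the deposited tables annotate to a 3' untranslated region and that touch neither border of the gene they were assigned to. A peak touched a border where its first or last base was the first or last base of that gene. The rule took 17685 peaks from the FB23-2 list and 18034 from the DMSO list, 35719 of 84651 peaks in all. They were 73.8% of the 23967 3' UTR peaks of the FB23-2 list (95% interval 73.2 to 74.3) and 73.5% of the 24543 of the DMSO list (72.9 to 74.0). The remaining 3' UTR peaks ended at the gene's 3' border, in 6146 FB23-2 and 6380 DMSO cases, or touched the 5' border only, in 136 FB23-2 and 129 DMSO cases.

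MeRIP-seq enriches fragments of RNA with an antibody against m6A, and was applied to MHCC97H, a human hepatocellular carcinoma cell line with no engineered allele named in the labels. FB23-2, a small-molecule inhibitor of the m6A demethylase FTO, was given at 2 µM for 48 h to 3 samples, and 3 samples received the solvent DMSO. The series' design text gives the purpose as finding what FB23-2 acts on through FTO, and its title names ERBB3 and TUBB4A. Each treatment has 1 pooled peak list here, of 41838 peaks for FB23-2 and 42813 for DMSO, so the values have no spread between samples, and a difference between FB23-2 and DMSO cannot be set against one. Intervals are exact (Clopper-Pearson) 95% intervals that cover the counting of peaks only, and the read depth is unknown. One cell line stands for the tumour, and nothing in the labels says that the 3 samples of a treatment came from separate cultures.

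m6A is written on mRNA by a complex built around METTL3 and METTL14, removed by FTO and ALKBH5, and read by proteins such as the YTHDF family, which steer transcripts toward decay or translation. In mammalian mRNA the mark is concentrated around the stop codon and along the 3' UTR. The 3' UTR is the untranslated stretch after the stop codon, where microRNAs and RNA-binding proteins act and where the choice of cleavage site sets how long the transcript is.

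Some of these peaks also hold whole microRNA hairpins. The hairpin and mature microRNA sequences are the only sequences of these regions at hand, since no genome was used. Of 1562 hairpins in the RefSeq table for GRCh38.p14, 50 lay wholly within an internal 3' UTR peak of the FB23-2 list on the same strand, and 52 within one of the DMSO list. Long spans contain introns, so the peaks spanning at most 1200 bases place a hairpin more closely: these held 12 hairpins in the FB23-2 list and 11 in the DMSO list, 7 of them in both. For MIR3658, MIR378I and MIR4800 a single mature sequence was at hand, so an arm can be missing. The mature sequences at hand for the 7 hairpins follow, 5′ to 3′, with the seed (bases 2 to 8) in capitals.
hsa-miR-3614-5p: cCACUUGGaucugaaggcugccc
hsa-miR-3614-3p: uAGCCUUCagaucuugguguuuu
hsa-miR-3658: uUUAAGAAaacaccauggagau
hsa-miR-378i: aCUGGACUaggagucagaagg
hsa-miR-4800-3p: cAUCCGUCcgucuguccac
hsa-miR-6820-5p: uGCGGCAGagcugggguca
hsa-miR-6820-3p: uGUGACUUcuccccugccacag
hsa-miR-6837-5p: aCCAGGGCcagcagggaaugu
hsa-miR-6837-3p: cCUUCACUgugacucugcugcag
hsa-miR-7111-5p: uGGGGGAGgaaggacaggccau
hsa-miR-7111-3p: aUCCUCUCuucccuccucccag

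No seed was shared among these 11 sequences. The letters GGAC, the core of the preferred m6A motif, occurred in 2 of them, miR-378i and miR-7111-5p. They occurred in 4 of the 7 hairpins and in 7 of the 16 held by a short peak of either list, against 27.3% of all hairpins in the table. These counts are small and were not tested. Only the hairpin's own strand was searched, and the match describes letters, not a modified site. MIR3614 lies in TRIM25, an antiviral ubiquitin ligase, and its peak had the same borders in both lists (17:56891159-56892229, minus strand, span 1071 bases), with a log2 fold of 2.33 in the FB23-2 list and 1.96 in the DMSO list. MIR378I lies in TNFRSF13C, the receptor for the B-cell survival factor BAFF, in a peak with a log2 fold of 3.17 in the FB23-2 list and 3.39 in the DMSO list. MIR3658 lies in UCK2, a uridine-cytidine kinase, in a peak spanning 550 bases in the FB23-2 list and 525 in the DMSO list (log2 fold 1.51 in each). MIR7111 lies in RPL10A, a ribosomal protein gene, in a peak that ends 8 bases short of the gene's 3' border (log2 fold 1.11 in the FB23-2 list and 1.15 in the DMSO list). MIR6837 lies in DBNL, an actin-binding adaptor, in a peak with identical borders in both lists. Of the hairpins that a short peak held in 1 list, MIR6755 lay in an EED peak found in the FB23-2 list only (11:86278232-86278406, log2 fold 0.82) and MIR4728 in an ERBB2 peak found in the DMSO list only (17:39726199-39726633, log2 fold 1.06). MIR4315-1 lay in another DMSO-only peak, in PLEKHM1 (17:45475151-45475500, log2 fold 1.16). EED is a subunit of the Polycomb repressive complex PRC2 and ERBB2 a receptor tyrosine kinase that pairs with ERBB3.

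Most internal 3' UTR peaks were called under both treatments. A peak was called shared where some peak of the opposite list, on its strand, covered 50% or more of whichever of them was shorter, and list-only otherwise. By this rule 14731 of the FB23-2 peaks (83.3%, 82.7 to 83.8) and 14484 of the DMSO peaks (80.3%, 79.7 to 80.9) were shared. FB23-2-only peaks numbered 2954, or 16.7%, where 17.3% of all peaks in that list were FB23-2-only, and DMSO-only peaks numbered 3550, or 19.7%, where the same figure was 20.1%. The list-only share of internal 3' UTR peaks was thus close to that of peaks in general in each list. Most list-only peaks, 2681 in the FB23-2 list and 3297 in the DMSO list, had no overlap at all with the other list. The same held for list-only peaks of any class, 6677 of 7227 in the FB23-2 list and 8092 of 8607 in the DMSO list.

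The neighbouring classes differed more. Among 3' UTR peaks at the gene's 3' border 98.3% (98.0 to 98.6) of the FB23-2 list and 95.6% (95.1 to 96.1) of the DMSO list were shared, and among coding exon peaks 74.0% (72.8 to 75.2) for FB23-2 and 68.7% (67.4 to 69.9) for DMSO. Internal 3' UTR peaks lay between both classes in each list. A span of 525 bases was the median for both treatments, against 325 bases (FB23-2) and 350 bases (DMSO) at the 3' border and 1780 bases (FB23-2) and 1898 bases (DMSO) in coding exons, where the span counts the introns between a peak's ends.

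How often a peak was shared varied with its significance. Each peak carries the authors' p-value, and 2285 internal 3' UTR peaks of the FB23-2 list and 2330 of the DMSO list had a deposited p of 0. All of those in the FB23-2 list were shared, and 8 of those in the DMSO list were not. Over all peaks with a p of 0, 0.0222% were FB23-2-only and 0.425% DMSO-only. Between p-values of 1e-30 and 1e-10, 89.6% of the FB23-2 peaks and 88.3% of the DMSO peaks were shared. From 1e-05 upward the share was 53.0% (51.4 to 54.6) in the FB23-2 list and 47.3% (45.8 to 48.8) in the DMSO list. At the same p-values, peaks at the gene's 3' border were shared in 84.0% of FB23-2 and 81.2% of DMSO cases and coding exon peaks in 46.2% of FB23-2 and 39.9% of DMSO cases, the same order as over all p-values.

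**Figure D1:**
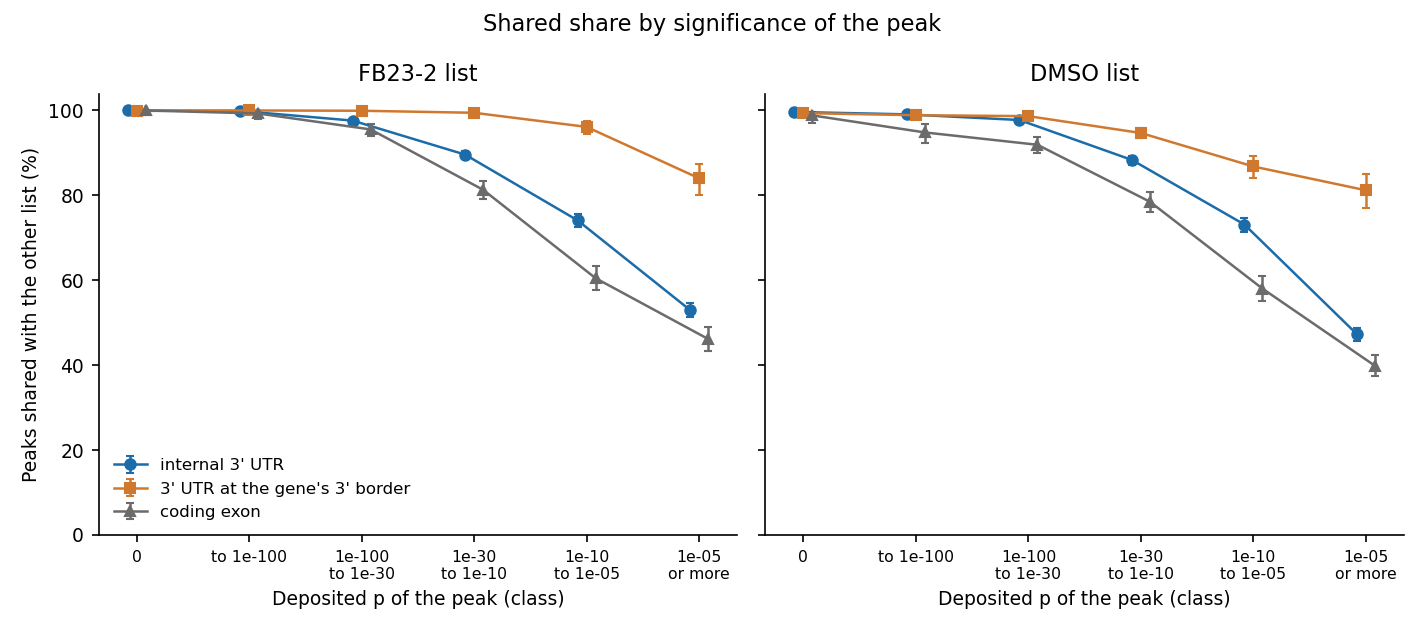
Share of peaks shared with the other list (y axis, percent) by class of the deposited p-value (x axis, from 0 to 1e-05 or more), for internal 3' UTR peaks, 3' UTR peaks at the gene's 3' border and coding exon peaks, with the FB23-2 list left and the DMSO list right; bars are exact 95% intervals. In the weakest class internal 3' UTR peaks stand at 53.0% (FB23-2) and 47.3% (DMSO), below the peaks at the 3' border at 84.0% (FB23-2) and 81.2% (DMSO).

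Short peaks were shared less often than long ones, but the overlap rule itself favours long peaks. Overlap is counted against the shorter peak, so a short peak lying inside a long one makes both shared. Under the reciprocal rule, the shared share of all internal 3' UTR peaks was 65.9% for FB23-2 and 64.4% for DMSO. That share was not split by span, so the part of the rule in the difference was not tested. Of internal 3' UTR peaks spanning 100 to 200 bases, 55.1% (53.5 to 56.7) were shared in the FB23-2 list and 47.7% (46.0 to 49.4) in the DMSO list, against 94.1% (FB23-2) and 92.0% (DMSO) of those spanning more than 1000 and up to 10000 bases. Equally short peaks at the gene's 3' border were shared in 96.1% of FB23-2 and 85.3% of DMSO cases. The median span of list-only peaks was 200 bases in both lists, and that of shared peaks 675 bases in the FB23-2 list and 700 in the DMSO list.

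The deposited log2 fold per peak, read here as antibody over input although the tables do not say so, had a median of 1.28 (quartiles 0.96 and 2.04) in the FB23-2 list and 1.25 (0.92 and 2.00) in the DMSO list. Peaks at the 3' border had medians of 1.48 for FB23-2 and 1.53 for DMSO, and coding exon peaks 1.23 for FB23-2 and 1.16 for DMSO. List-only internal peaks were weaker than shared ones within each list, with medians of 0.99 against 1.38 for FB23-2 and 0.95 against 1.38 for DMSO. A fold of at least 4 was reached by 25.8% of internal 3' UTR peaks in the FB23-2 list, where 30.4% of all peaks reached it, and by 24.9% in the DMSO list, where 29.2% did.

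**Figure D2:**
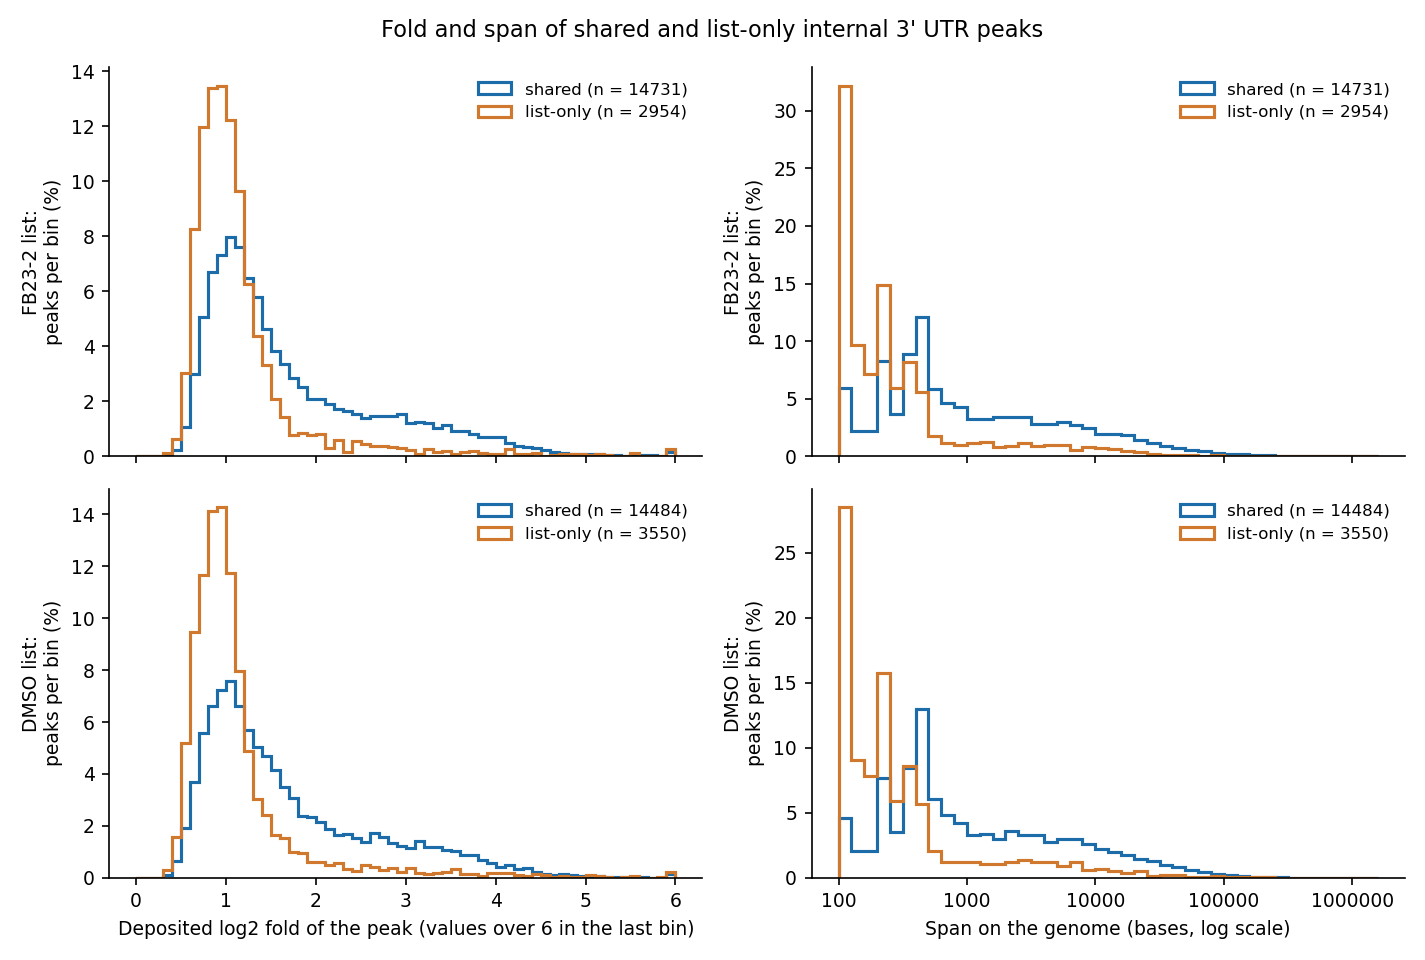
Distribution of the deposited log2 fold (left) and of the span on the genome in bases, log scale (right), for shared and list-only internal 3' UTR peaks, with the FB23-2 list above and the DMSO list below; the y axis is the percent of each class per bin. List-only peaks gather at folds near 1 and at spans of 100 to 200 bases in both lists.

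The strongest internal 3' UTR peaks, taken as those with the highest fold among shared peaks with a p of 0, lay in 8 genes per list, 7 of them in common. INF2, an actin-regulating formin, had a log2 fold of 5.14 in the FB23-2 list and 5.18 in the DMSO list, in a peak with identical borders (14:104721284-104722533, plus strand, GRCh38). SNRNP35, a protein of the minor spliceosome, also had identical borders (12:123464769-123466581) and folds of 5.26 in the FB23-2 list and 5.12 in the DMSO list. ADORA2B, an adenosine receptor, reached 4.80 in the FB23-2 list and 4.86 in the DMSO list in a peak that ends 1 base short of the gene's 3' border. The zinc finger gene ZNF891, the transposase-derived gene PGBD2, the zinc-sensing receptor GPR39 and LYPD1, a regulator of nicotinic receptors, had log2 folds from 4.80 to 5.05 in the FB23-2 list and from 4.82 to 5.08 in the DMSO list. The INF2 peak ended 2 bases and the GPR39 peak 4 bases short of the gene's 3' border in both lists. RWDD2A completed the FB23-2 set (4.94, with 4.81 for its DMSO peak) and CIITA, the master regulator of MHC class II genes, the DMSO set (4.99, with 4.76 for its FB23-2 peak). GPR39 and LYPD1 overlap on opposite strands, and whether the libraries kept strand is not given in the sources used here, so their peaks cannot be told apart with certainty.

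Higher folds occurred at weaker p-values, and the genes named for them were picked after their values were seen. SOX10, a neural crest transcription factor, had a log2 fold of 10.68 in the FB23-2 list and 9.20 in the DMSO list, with p-values in the authors' deposited tables of 7.22e-20 for FB23-2 and 1.17e-19 for DMSO. Its FB23-2 peak (22:37971261-37978054, minus strand) lies within the bounds of POLR2F on the opposite strand. A POLR2F peak before it (22:37967493-37967981) lies 73934 bases from the 3' border of POLR2F. As for GPR39 and LYPD1, the strand of the SOX10 peak is thus not certain. S100B, a calcium-binding protein of glia, had 9.13 in the FB23-2 list and 9.31 in the DMSO list, and GYPC, a red cell membrane glycoprotein, 7.60 in the FB23-2 list and 9.59 in the DMSO list. The sphingosine receptor gene S1PR3 had an FB23-2-only peak spanning 100 bases with a log2 fold of 7.82 (9:89002654-89002753), and MLYCD, a malonyl-CoA decarboxylase, a DMSO-only peak with 7.74 (16:83921080-83921329).

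The FB23-2-only internal peaks with the lowest p-values had log2 folds from 0.72 to 1.30, and in 7 of their 8 genes a shared internal peak was called as well. UQCRB, a subunit of respiratory complex III, had 5 internal peaks per list, of which 2 FB23-2 peaks and 2 DMSO peaks were list-only. One of the FB23-2-only peaks was the most significant such peak, spanning 100 bases with a log2 fold of 0.78 and 8.14e-111 as its p in the authors' deposited table. DDX21, a nucleolar RNA helicase, followed with a peak of 200 bases (10:68983746-68983945, log2 fold 0.72), downstream of a shared peak with 1.74 in the FB23-2 list and 1.78 in the DMSO list. NAP1L4, a histone chaperone, had its single internal peak in the FB23-2 list (11:2945456-2945580, log2 fold 1.08) and none in the DMSO list, although 2 other DMSO peaks were assigned to it.

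CDC42, a small GTPase of cell polarity, had 7 internal peaks in the FB23-2 list, of which 4 were FB23-2-only, and 3 in the DMSO list, all shared. At an adjusted p below 0.001 the FB23-2-only count was 1, and with equal numbers of the most significant peaks 1 FB23-2 peak and 1 DMSO peak were list-only. Its most significant FB23-2-only peak (1:22091862-22092036) had a log2 fold of 0.90. PRKDC, the catalytic subunit of DNA-dependent protein kinase, had an FB23-2-only peak of 325 bases (log2 fold 0.75) that lay 350 bases from the gene's 3' border, and a shared peak at 775 bases with 1.16 in the FB23-2 list and 1.12 in the DMSO list. NOP16, a nucleolar protein of ribosome assembly, INF2 and BRD2, a bromodomain protein, each had 1 FB23-2-only peak, with log2 folds of 1.30, 1.18 and 1.01. For BRD2 the other 3 internal peaks of the FB23-2 list each had a DMSO partner.

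The 8 DMSO-only internal peaks with a p of 0 lay in 7 genes, and none overlapped an FB23-2 peak on the same strand. With strand ignored, the C19orf33 peak was shared with an FB23-2 peak. C19orf33 (19:38304640-38304997, log2 fold 1.27, 9 bases from the gene's 3' border) and RPS27 (1:153991587-153992077, log2 fold 1.03) had no peak of any class in the FB23-2 list. RPS27 and RPS3 encode ribosomal proteins. RPS3 had 3 DMSO-only peaks among 6 internal ones, against 2 internal peaks in the FB23-2 list, both shared, and the strongest RPS3 peak had a log2 fold of 2.18 in the FB23-2 list and 2.27 in the DMSO list. ACTB, cytoplasmic actin, had 1 internal FB23-2 peak and 2 DMSO peaks, of which the DMSO-only one spanned 150 bases at 550 bases from the gene's 3' border (log2 fold 1.08). PKM and LDHA, enzymes of the last steps of glycolysis, had DMSO-only peaks with log2 folds of 0.85 and 0.55, and had 2 and 3 peaks of their own in the FB23-2 list.

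**Figure D3:**
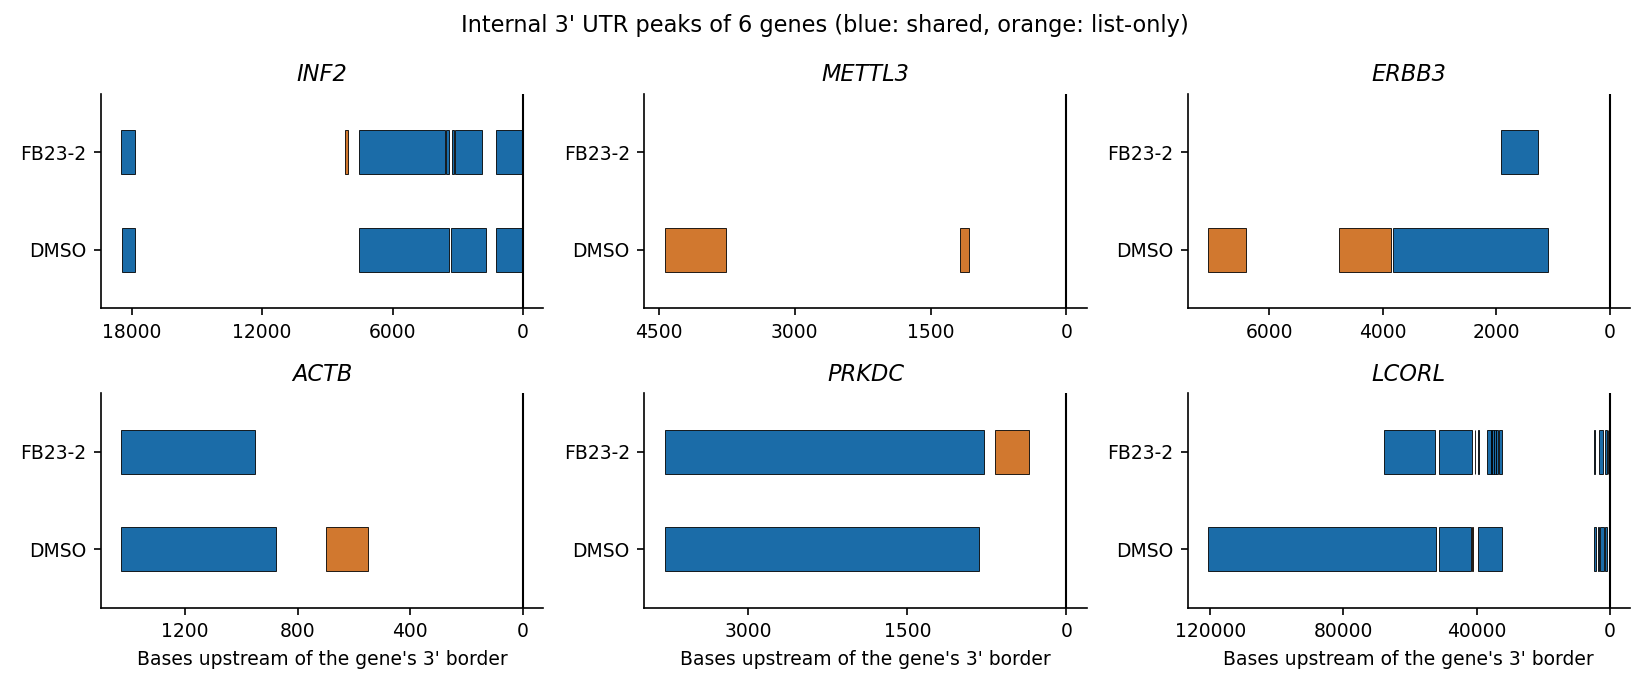
Internal 3' UTR peaks of INF2, METTL3, ERBB3, ACTB, PRKDC and LCORL, drawn to scale by distance upstream of the gene's 3' border in bases (x axis, separate scale per gene), with the FB23-2 list above the DMSO list; blue peaks are shared and orange peaks list-only. LCORL shows 14 FB23-2 peaks against 8 DMSO peaks, of which the narrowest appear as outlines, and METTL3 shows 2 DMSO-only peaks and none in the FB23-2 list.

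Among the m6A writers, METTL3, the catalytic subunit, had no internal peak in the FB23-2 list and 2 in the DMSO list, both DMSO-only (14:21499213-21499312, log2 fold 0.82, and 14:21501895-21502569, log2 fold 0.84). Of these, 1 was DMSO-only with equal numbers of the most significant peaks, and neither reached a fold of 4. METTL14, its partner subunit, had 2 FB23-2 peaks and 1 DMSO peak, all shared, and its main peak had a log2 fold of 2.96 in each list. WTAP, the adaptor of the complex, had 1 FB23-2 peak (log2 fold 2.05) whose DMSO partner reached the gene's 3' border (log2 fold 2.45), so the DMSO list had no internal one. RBM15B, an RNA-binding adaptor of the complex, had 4 FB23-2 peaks and 3 DMSO peaks, and its 1 FB23-2-only peak of 100 bases lay next to its strongest one (log2 fold 3.69 in the FB23-2 list and 3.55 in the DMSO list). METTL16, a separate methyltransferase, also had 1 FB23-2-only peak. Over the 14 writer genes, 4 of 18 FB23-2 peaks (22.2%) and 2 of 15 DMSO peaks (13.3%) were list-only, where 16.7% (FB23-2) and 19.7% (DMSO) of all internal 3' UTR peaks were.

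The erasers had the same number of internal peaks in both lists, and all were shared. FTO had 2 in each, at log2 folds of 1.63 and 1.10 in the FB23-2 list and 1.54 and 1.09 in the DMSO list, and ALKBH5 had 2 in each, at 0.96 and 1.27 in the FB23-2 list and 0.98 and 1.27 in the DMSO list. The ALKBH5 peak with 1.27 ended 1 base short of the gene's 3' border in both lists. Of the readers, YTHDF1 and YTHDF2 had 1 peak in each list, with log2 folds of 3.23 and 3.83 in the FB23-2 list and 3.11 and 3.75 in the DMSO list. The YTHDF2 peak ended 4 bases short of the gene's 3' border in both lists. YTHDF3 had 2 FB23-2 peaks and 1 DMSO peak that spanned both. Over 16 reader genes, 2 of 31 FB23-2 peaks (6.45%) and 5 of 33 DMSO peaks (15.2%) were list-only, both below the 16.7% (FB23-2) and 19.7% (DMSO) of all internal peaks. At an adjusted p below 0.001 the reader counts were 2 for FB23-2 and 3 for DMSO. IGF2BP1, a reader that stabilises its targets, contributed 1 of the DMSO-only peaks (17:49049590-49049889, log2 fold 0.91).

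ERBB3 and TUBB4A, the genes in the series title, differed between the lists in their internal peaks but not in their number of peaks of any class. Of any class, ERBB3 had 4 peaks in each list and TUBB4A 2 in each list. ERBB3, a receptor tyrosine kinase, had 1 internal peak in the FB23-2 list (12:56101595-56102244, span 650 bases, log2 fold 2.07) and 3 in the DMSO list. The FB23-2 peak lay within the longest DMSO peak (12:56099681-56102419, span 2739 bases, log2 fold 1.40), and the other 2 DMSO peaks were DMSO-only. Of those 2, 1 was DMSO-only at an adjusted p below 0.001 and none with equal numbers of the most significant peaks. The FB23-2 peak itself became FB23-2-only under a reciprocal overlap of 50% and at a fold of at least 4. TUBB4A, a beta-tubulin, had no internal peak in the FB23-2 list and 1 in the DMSO list (19:6495769-6496093, log2 fold 2.32), whose FB23-2 partner was annotated to a coding exon (log2 fold 1.84). The TUBB4A peak was DMSO-only with equal numbers of the most significant peaks, at a fold of at least 4 and under a reciprocal overlap of 50%. Over 20 tubulin genes, 2 of 12 FB23-2 peaks and 1 of 12 DMSO peaks were list-only, and 1 FB23-2 peak and 0 DMSO peaks at an adjusted p below 0.001. Over 57 genes of ERBB, PI3K and MAPK signalling, 21 of 105 FB23-2 peaks and 22 of 109 DMSO peaks (20.2%) were list-only, where 16.7% (FB23-2) and 19.7% (DMSO) of all internal peaks were, and 19 FB23-2 and 14 DMSO peaks at the stricter adjusted p.

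Genes whose products act on 3' UTRs carried internal peaks themselves. The microRNA silencing machinery, 13 genes all with a peak of some class, had an internal one in 10 genes of each list, 76.9%. Over genes of every kind with a peak, 55.5% (FB23-2) and 55.2% (DMSO) had one. Most other gene lists also lay above that share. WNT, NOTCH and Hippo genes had 88.1% (FB23-2) and 85.7% (DMSO), and cell cycle genes 71.7% (FB23-2) and 63.8% (DMSO). Tubulins had 37.5% (FB23-2) and 43.8% (DMSO). The silencing genes held 39 internal peaks in the FB23-2 list and 37 in the DMSO list. Of these, 13 FB23-2 peaks (33.3%) and 12 DMSO peaks (32.4%) were list-only, against 16.7% (FB23-2) and 19.7% (DMSO) of all internal peaks. Genes with several internal peaks shared a smaller part of them in general. In genes with 3 to 4, 80.2% (FB23-2) and 77.0% (DMSO) were shared, and the comparison was not matched for this. At an adjusted p below 0.001 the list-only counts of the silencing genes were 8 for FB23-2 and 4 for DMSO. Among these genes AGO2, the slicing Argonaute, had 2 internal peaks per list, each of them shared, with log2 folds up to 2.48 for FB23-2 and 2.50 for DMSO. DICER1, which cuts precursors, had an FB23-2-only peak 525 bases from the gene's 3' border (log2 fold 0.75), DGCR8, the partner of DROSHA, had one 5 bases from it (log2 fold 1.67), and TNRC6C, a scaffold of silencing, had a DMSO-only peak (17:78106550-78106949, log2 fold 3.73).

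The RNA-binding regulators of 3' UTRs, 26 genes, had 15 of 54 FB23-2 peaks (27.8%) and 9 of 46 DMSO peaks (19.6%) list-only, where 16.7% of all internal FB23-2 peaks and 19.7% of all internal DMSO peaks were; the DMSO share was that of all internal peaks. CELF1, a GU-binding decay factor, had 1 FB23-2-only peak, with a log2 fold of 0.72, and the single peak of ZFP36L2, which binds AU-rich elements, was shared with 4.17 in the FB23-2 list and 3.75 in the DMSO list. Deadenylation and decay genes had 12 of 59 FB23-2 peaks (20.3%) and 4 of 49 DMSO peaks (8.16%) list-only, against the same 16.7% for FB23-2 and 19.7% for DMSO. SMG5, a nonsense-mediated decay factor, had its single internal peak in the FB23-2 list (1:156250074-156250273, log2 fold 0.93), and EDC3, an enhancer of decapping, a DMSO-only peak (15:74635317-74635666, log2 fold 0.91).

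Cleavage and polyadenylation genes had 4 of 32 FB23-2 peaks (12.5%) and 7 of 39 DMSO peaks (17.9%) list-only, below the 16.7% (FB23-2) and 19.7% (DMSO) of all internal peaks. At an adjusted p below 0.001 the counts were 4 for FB23-2 and 3 for DMSO. CPSF7, a subunit of cleavage factor I, had an FB23-2-only peak spanning 1088 bases (11:61410719-61411806, log2 fold 1.26) and no internal DMSO peak. Its partner subunit NUDT21 had 1 FB23-2 peak and 2 DMSO peaks, of which 1 was DMSO-only (log2 fold 0.61). WDR33, which recognises the polyadenylation signal, had 4 FB23-2 peaks and 7 DMSO peaks, all of them overlapping a peak of the other list except 1 DMSO peak.

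The remaining groups varied around the list-only share of all internal peaks, 16.7% for FB23-2 and 19.7% for DMSO. Cytosolic ribosomal protein genes, 79 in the list, had 3 of 86 FB23-2 peaks (3.49%) and 10 of 94 DMSO peaks (10.6%) list-only, both below that share, and the DMSO ones include RPS27 and RPS3 above. Apoptosis genes had 5 of 45 FB23-2 peaks (11.1%) and 13 of 51 DMSO peaks (25.5%) list-only, and 5 FB23-2 and 8 DMSO peaks at an adjusted p below 0.001. CFLAR, a caspase-8 inhibitor, gave 3 to each count, and MCL1, a BCL2 family survival factor, had 2 shared peaks per list. Immediate early and AU-rich mRNAs had a median log2 fold of 2.53 in the FB23-2 list and 1.77 in the DMSO list, above the 1.28 (FB23-2) and 1.25 (DMSO) of all internal peaks, and 1 of 16 FB23-2 peaks and 3 of 21 DMSO peaks were list-only. The FB23-2-only one lay in EGR2, an early growth response factor with no DMSO peak of any class (10:62812521-62813170, log2 fold 2.25).

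Cell cycle genes had 6 of 50 FB23-2 and 6 of 43 DMSO peaks list-only, below the 16.7% (FB23-2) and 19.7% (DMSO) of all internal peaks. WNT, NOTCH and Hippo genes had 13 of 77 FB23-2 peaks (16.9%) and 14 of 76 DMSO peaks (18.4%) list-only, near those shares, and 11 FB23-2 and 7 DMSO peaks at an adjusted p below 0.001. Cholesterol and fatty acid synthesis genes had 5 of 47 FB23-2 peaks (10.6%) and 4 of 45 DMSO peaks (8.89%) list-only, and 3 FB23-2 and 2 DMSO peaks at the stricter adjusted p. TOP2A, the mitotic topoisomerase, had its single internal peak in the DMSO list (17:40389375-40389549, log2 fold 0.84). Reported FTO substrates, a list taken from other studies, had 5 of 26 FB23-2 peaks (19.2%) and 6 of 29 DMSO peaks (20.7%) list-only, close to all internal peaks, and 3 FB23-2 and 6 DMSO peaks at the stricter adjusted p. These counts describe 1 list per treatment and were not tested.

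The genes that carry peaks were checked against the labelled cell type. Of 31 hepatocyte and liver cancer genes, 10 had a peak of any class in the FB23-2 list and 9 in the DMSO list. HNF4A, a liver transcription factor, had 4 internal FB23-2 peaks and 2 DMSO peaks, all shared. APOE, CEBPA, KRT8, KRT18, EPCAM and SOX9 also had a peak of some class in both lists. ALB, AFP, APOB and GPC3 were among those with no peak in either list. Of 13 fibroblast and stellate cell markers 9 had a peak in each list, among them COL1A1, COL3A1 and DCN, and PDGFRA, FAP, THY1 and LRAT had none. A peak was found in 1 of 8 endothelial markers in each list and, of 11 leukocyte markers, in 3 in the FB23-2 list and 4 in the DMSO list. A gene can be expressed without a called peak, and the part of other cells in these lists was not tested.

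By position, an internal 3' UTR peak was not always near the gene's end. The median distance from its downstream edge to the gene's 3' border was 2057 bases (quartiles 600 and 6275) in the FB23-2 list and 2048.5 bases (600 and 6325) in the DMSO list, and 18.6% of the FB23-2 peaks lay more than 10000 bases away. Another 407 FB23-2 and 420 DMSO peaks ended past the 3' border, and 8 of these FB23-2 peaks and 17 of these DMSO peaks were list-only. Just inside the border rule, 1372 FB23-2 peaks and 1422 DMSO peaks ended 1 to 9 bases short of the 3' border, and just 58 FB23-2 and 53 DMSO peaks ended 10 to 24 bases short of it. In the FB23-2 list those at each of the distances from 1 to 9 bases numbered 140 to 178, against 6088 that ended on the border itself and did not also touch the 5' border, as 58 more did. These near-border peaks were shared in 98.1% (97.2 to 98.8) of FB23-2 and 95.9% (94.8 to 96.9) of DMSO cases, close to the 98.3% (FB23-2) and 95.6% (DMSO) of peaks that touched the border. Their median log2 fold was 1.47 for FB23-2 and 1.54 for DMSO.

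The other 15906 FB23-2 and 16192 DMSO peaks lay more than 9 bases upstream of the border, and 81.6% (81.0 to 82.2) of the FB23-2 ones and 78.5% (77.9 to 79.2) of the DMSO ones were shared. Beyond 10000 bases the shared share was 77.0% (75.5 to 78.4) for FB23-2 and 74.3% (72.8 to 75.8) for DMSO. Peak edges followed a grid: 34.2% (FB23-2) and 34.3% (DMSO) of the peaks at least 10 bases away lay at a whole multiple of 25 bases from the gene's 3' border.

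**Figure D4:**
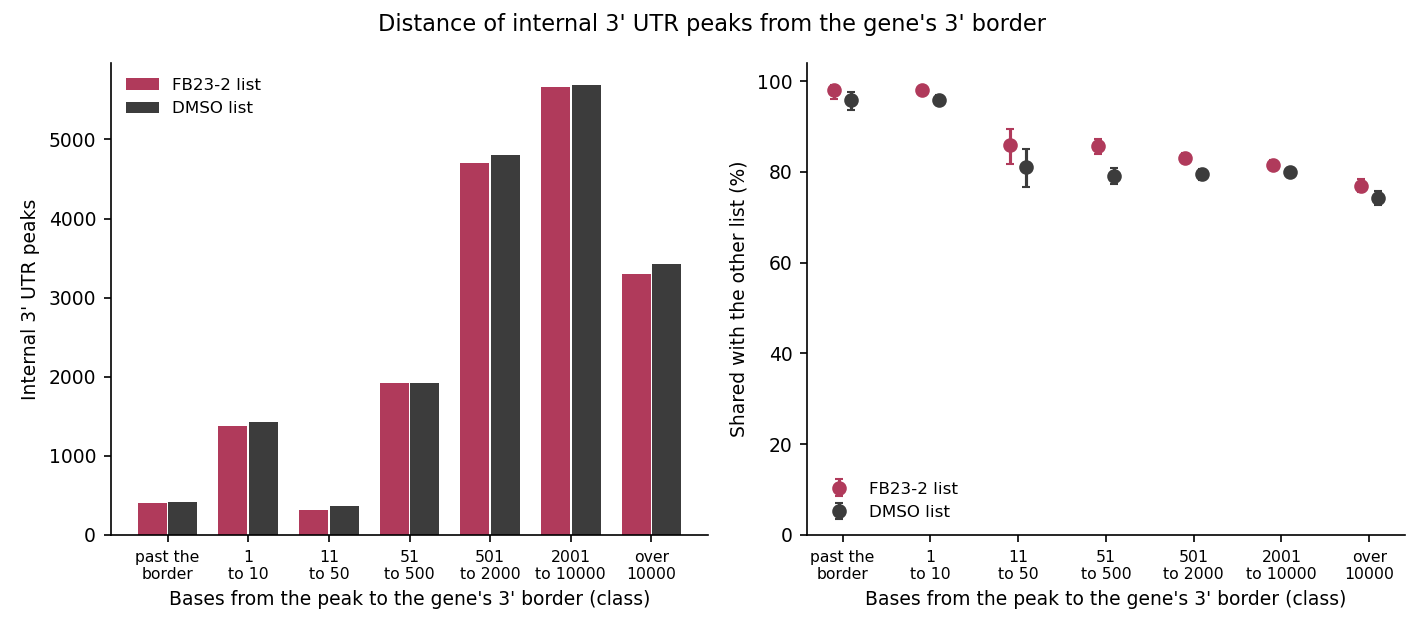
Number of internal 3' UTR peaks (left) and percent of them shared with the other list (right) by distance from the peak's downstream edge to the gene's 3' border in bases, for the FB23-2 and DMSO lists; bars on the right are exact 95% intervals. Peaks 1 to 10 bases from the border were shared in 98.1% of FB23-2 and 95.9% of DMSO cases, and peaks over 10000 bases away in 77.0% of FB23-2 and 74.3% of DMSO cases.

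The deposited class and the gene's position did not always match. The centre of 2066 FB23-2 peaks (11.7%) and 2138 DMSO peaks (11.9%) lay in the upstream part of the gene, nearer its 5' border. Counted separately, 407 FB23-2 and 396 DMSO peaks lay wholly upstream of a coding exon peak of the same gene. Their median distance to the 3' border was 41691 bases for FB23-2 and 45396 bases for DMSO, and 79.9% of the FB23-2 ones and 76.0% of the DMSO ones were shared. An FTO peak (16:53814707-53873846) lay 284666 bases from its gene's 3' border. The class was kept as deposited, and the reason for these positions was not tested.

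Shared internal peaks were mostly matched to their own kind. The best-overlapping partner was itself an internal 3' UTR peak for 94.4% (94.0 to 94.8) of the FB23-2 peaks and 95.2% (94.8 to 95.6) of the DMSO peaks. It was a 3' UTR peak at the gene's 3' border for 426 FB23-2 and 278 DMSO peaks, and a coding exon peak for 185 FB23-2 and 187 DMSO peaks. It was a 5' UTR peak for 119 FB23-2 and 142 DMSO peaks and an intron peak for 54 FB23-2 and 44 DMSO peaks. Partner and peak were assigned to different genes in 138 cases in each list.

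Shared peaks often differed in their borders. In 12982 pairs of internal peaks that were each other's best partner, 1634 had identical borders, both borders lay within 25 bases in 31.2% and both within 100 bases in 57.8%. The FB23-2 peak was the longer one in 4788 pairs, the shorter one in 6197 and equally long in 1997. The downstream border was the same in 5317 pairs and the upstream one in 3545.

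One peak in 1 list could stand for several in the other. An internal peak overlapped 2 or more peaks of the other list in 1244 FB23-2 cases (7.03%) and 1450 DMSO cases (8.04%). LCORL, a transcription factor gene associated with body size, had a DMSO peak (4:17873443-17880698, log2 fold 2.46) that covered 7 FB23-2 peaks. HNF4A had a DMSO peak spanning 7805 bases that was the partner of 3 FB23-2 peaks. Among list-only peaks, 11.6% of the FB23-2 ones and 13.0% of the DMSO ones lay less than 50 bases from another peak of the same gene and list, against 9.41% (FB23-2) and 10.1% (DMSO) of shared ones. The tables hold no coverage, and the part of such cutting in the list-only counts was not tested.

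By gene, 9539 genes had an internal 3' UTR peak in at least 1 list, and 8260 (86.6%) had one in both. In the FB23-2 list 8878 genes had one, 55.5% of its genes with any peak, and in the DMSO list 8921 genes, 55.2%. Of 618 genes with one in the FB23-2 list alone, 483 had another kind of peak in the DMSO list, and of 661 genes in the DMSO list alone, 470 had one in the FB23-2 list. Of the genes with internal peaks in both lists, 4834 had equal numbers, 1633 had more in the FB23-2 list and 1793 more in the DMSO list. In 5527 genes (57.9%) every internal peak was shared. List-only peaks mostly lay in genes that also had a shared internal peak, 81.4% of them in the FB23-2 list and 79.4% in the DMSO list.

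Genes with several internal peaks shared a smaller part of them. In genes with 1 internal peak 90.3% (89.4 to 91.2) of the FB23-2 peaks and 88.3% (87.3 to 89.3) of the DMSO peaks were shared, and in genes with 5 to 9, 73.6% (71.9 to 75.3) of the FB23-2 and 71.3% (69.6 to 72.9) of the DMSO peaks were. Genes with 10 or more, 18 in the FB23-2 list and 20 in the DMSO list, shared 70.8% (64.1 to 76.9) for FB23-2 and 73.7% (67.3 to 79.5) for DMSO. CEP290, a ciliary transition zone protein, had the most in the FB23-2 list, 18 against 11 in the DMSO list, of which 5 FB23-2 peaks and 1 DMSO peak were list-only, and 2 FB23-2 peaks and 1 DMSO peak with equal numbers of the most significant peaks. ATRX, a chromatin remodeller, had 13 in the FB23-2 list and 10 in the DMSO list, and HNRNPU, an RNA-binding nuclear scaffold protein, had 12 in the FB23-2 list and 9 in the DMSO list. PCNX4 had 8 in the FB23-2 list and 14 in the DMSO list, CLPB, a mitochondrial disaggregase, 6 (FB23-2) and 12 (DMSO), and PEX26, a peroxisome import factor, 10 (FB23-2) and 13 (DMSO). FARP1 and the histone demethylase gene KDM5B had 12 in each list, of which 6 per list were list-only in FARP1 and 1 per list in KDM5B. With equal numbers of the most significant peaks 5 FB23-2 and 2 DMSO peaks of FARP1 were.

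**Figure D5:**
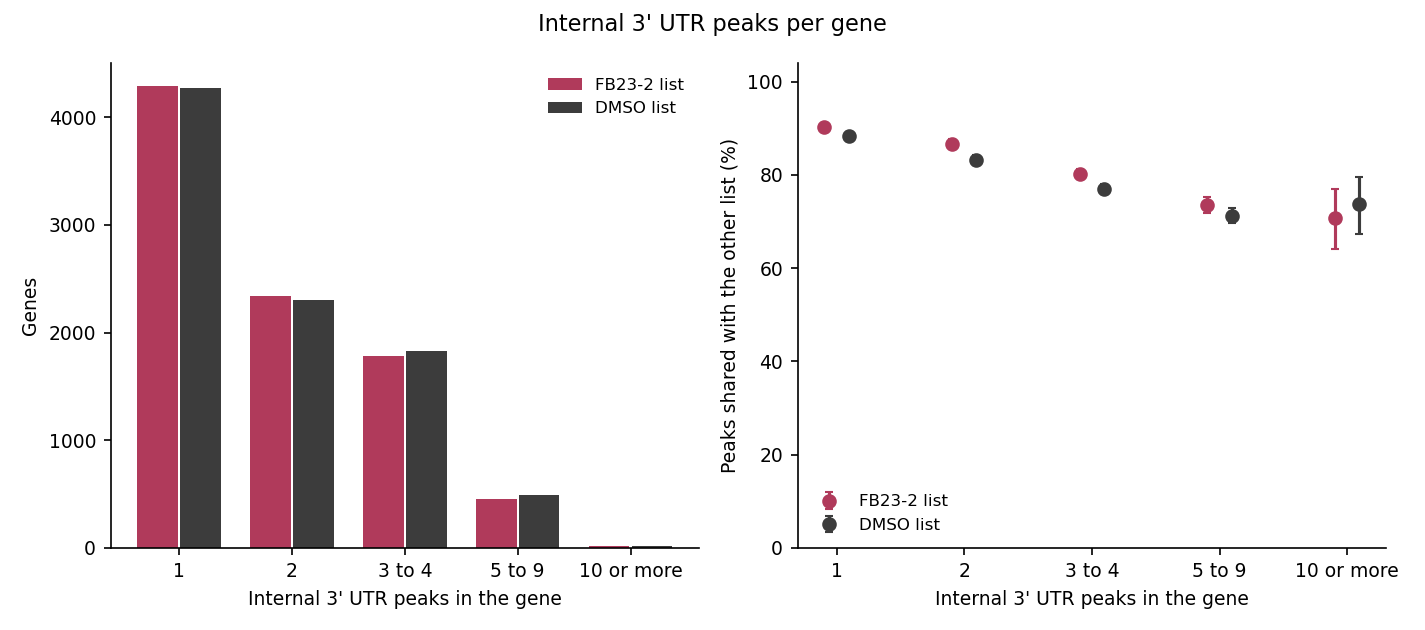
Number of genes (left) and percent of peaks shared with the other list (right) by the number of internal 3' UTR peaks in the gene, for the FB23-2 and DMSO lists; bars on the right are exact 95% intervals. The shared share is 90.3% (FB23-2) and 88.3% (DMSO) in genes with 1 such peak and 73.6% (FB23-2) and 71.3% (DMSO) in genes with 5 to 9.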

How the data were processed

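Fragmented poly(A) RNA was enriched with an m6A antibody and sequenced beside its input, per the labels' protocols. HISAT2, Cuffdiff and the build GRCh38 come from the submitters' processing notes; a peak caller is not given in the sources used here. Read depth is unknown. From this the authors deposited 1 peak table per treatment, with a log2 fold, a p-value and an adjusted p-value per peak, per the file headers; the tables name no sample and were taken as pooled. The log2 fold was used to describe, rank and filter within a list.

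Starts count from 0 in the tables and were made 1-based. Overlaps were found with bedtools 2.31.1, and shares and exact 95% intervals with Python 3.11.15 and scipy 1.17.1, after a check on simulated lists. The microRNA sequences are RefSeq's. Named genes are 10 fixed ones, the 8 list-only peaks per list with the lowest p, the 8 shared ones with the highest fold among those of lowest p, the 5 genes per list with the most internal peaks and up to 4 genes for each of 20 gene lists; not all are reported here. The peaks, gene lists and rules were chosen with earlier results of these data known.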

Additional observations from a re-analysis of the deposited data

How the results depend on the processing

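The shared share, 83.3% for FB23-2 and 80.3% for DMSO, was the higher one for FB23-2 under every alternative run except a fold of at least 4, where it was 87.0% for FB23-2 and 87.4% for DMSO. For FB23-2 it was 84.6% at an adjusted p below 0.001, 87.3% among equally many top peaks per list, 84.8% with any overlap, 65.9% with a reciprocal overlap of 50%, 84.3% with strand ignored, 81.8% with a 3' UTR partner required, 79.3% with an internal one required, 93.3% with each gene counted once by its most significant peak, and 81.8% with peaks within 50 bases of a border left out. For DMSO, in the same sequence, it was 84.5%, 86.5%, 81.7%, 64.4%, 81.4%, 79.0%, 77.3%, 91.9% and 78.8%. Chosen after seeing the data, leaving out peaks within 9 bases of a border gave 82.0% for FB23-2 and 78.9% for DMSO, and merging peaks of a gene within 100 bases gave 85.3% for FB23-2 and 83.0% for DMSO. A fold of at least 4 left 4570 FB23-2 and 4487 DMSO peaks. Genes with an internal peak in both lists, 86.6%, were 84.1% with a border slack of 10 bases, 83.7% with one of 50 bases, and 77.3% at a fold of at least 4. The internal share of partners was 96.5% for FB23-2 and 96.9% for DMSO with a reciprocal overlap. The median log2 fold was 1.36 for FB23-2 and 1.38 for DMSO at the stricter adjusted p, and 1.73 for FB23-2 and 1.72 for DMSO with each gene once. The median span was 600 bases for FB23-2 and 650 for DMSO at that adjusted p, and 1298.5 for FB23-2 and 1350 for DMSO with each gene once. The median distance to the 3' border was 2518 bases for FB23-2 and 2525 for DMSO with the slack of 50, and 1550 for FB23-2 and 1540 for DMSO with each gene once. Of 40 list-only counts in gene lists, 13 moved by over 1.5 times at the stricter adjusted p, all downward; of 408 for named genes under 6 settings, 89 did, 58 downward and 31 upward. The cause of these shifts was not tested.

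No paired analysis was possible because the tables hold 1 pooled list per treatment. For the same reason leaving out replicates was not run, and exon blocks were not used because the tables give spans only. Read depth is unknown, so what it limits could not be given.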
